A study of Mus musculus with 21 samples.

Results

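The lung bud grows and divides by an exchange of signals between its epithelium and the mesenchyme around it, and 10 genes at the core of that exchange are described here. They are Fgf10, Fgfr2, Spry2, Shh, Ptch1, Gli1, Hhip, Bmp4, Tbx4 and Tbx5, chosen by name. Each matched exactly 1 of the 42760 entries of the lung table and 1 entry of each brain table. The main comparison was of E14.5 lungs from Fendrr-/- embryos with wild-type lungs. In that comparison the 10 genes lay between 91.8% and 112% of their wild-type level, 5 above and 5 below it.

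In lung branching, FGF10 is released by distal mesenchyme and drives outgrowth of the epithelium through the receptor FGFR2, while Sprouty proteins restrain that signal inside the cell. Epithelial SHH signals back to the mesenchyme through the receptor PTCH1 and the GLI transcription factors, and Ptch1, Gli1 and Hhip are themselves switched on by the pathway. BMP4 limits and shapes the growing tip, and the T-box factors TBX4 and TBX5 act in the lung mesenchyme upstream of Fgf10.

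The study removed long intergenic non-coding RNA (lincRNA) genes in mice, 1 gene per strain, and sequenced RNA from affected organs. The lungs were labelled linc-Foxf1a+/+ or linc-Foxf1a-/-, the lincRNA named Fendrr in the study, at E14.5 with 2 libraries per genotype. The brains came from linc-Sox2+/+ and linc-Sox2-/- embryos (Peril in the study) at E18.5, and from linc-Brn1b+/+ and linc-Brn1b-/- animals as telencephalon (E13.5 and E15.5) or brain (P7). Each brain group had 2 libraries, except 3 for the linc-Brn1b-/- E15.5 telencephalon, and how many of these entered its pooled value is not known. Every knockout allele carried a lacZ reporter and a neomycin resistance cassette in place of the lincRNA gene. All strains were derived from VGF1 hybrid ES cells, and the mice were crossed back to C57BL/6J in a single generation. Differences in strain background between the genotypes were not tested. The knockout also differs from wild type by the inserted cassette. The Fendrr-/- lungs were compared with wild-type littermates, and the Fendrr allele kept its promoter and first exon.

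The tables give 1 expression value per group, in FPKM (sequenced fragments scaled to the length of the transcript and the size of the library), pooled over the libraries. The values used here therefore carry no spread between replicates and no known depth, no test was made from them, and a difference is given as its size. The authors' own tests, which the tables also hold, were not used. A gene was counted as past the limit when the log2 ratio of knockout to wild type, after adding 1 FPKM to both, was at least that of a 1.5-fold change. Counts were taken among genes with a mean of at least 1 FPKM over the compared groups. Because whole organs were sequenced, fewer cells of a type and less RNA per cell cannot be told apart.

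The labels were checked on the deleted transcript and on tissue markers. An entry covering Fendrr, linc-Cox4nb-4, had 38.4 FPKM in wild-type lung and 0.045 in the lung labelled knockout. All 10 lung epithelium markers (Sftpc, 819 and 871 FPKM in wild type and knockout) and all 10 lung mesenchyme markers (Tcf21, 83.7 and 89.5 FPKM) were above 1 FPKM in both lungs. Neurod6, a transcription factor of cortical neurons, was at 0.0553 FPKM in wild-type lung, listed at 0 in knockout lung, and between 64.8 and 344 FPKM in the brain groups. The genotypes also differed in sex composition: the summed FPKM of 4 Y-linked genes was 33.6 in wild-type lung and 0 in knockout lung, and it was likewise near 0 in 1 genotype of each brain comparison. What part sex had in any value below was not tested.

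The FGF arm of the circuit was near its wild-type level in Fendrr-/- lung. Fgf10, the mesenchymal growth factor (mm9 chr13:119490013-119581380, + strand), had 11.6 FPKM in wild-type lung against 13 FPKM in knockout lung, a log2 ratio of 0.15. This was the ratio farthest from 0 among the 10 genes with the deposited values (with equal sums of FPKM, Fgfr2 and Ptch1 were farther from 0 at -0.148 and -0.14), and 72.4% of the genes tested in lung had an absolute log2 ratio no larger than it. Fgfr2, the epithelial receptor (mm9 chr7:137305965-137410322, - strand), had 54.1 FPKM in wild type against 49.6 FPKM in knockout, a log2 ratio of -0.12. Spry2, the intracellular antagonist of FGF receptor signalling (mm9 chr14:106291164-106296036, - strand), had 14.8 and 15.4 FPKM in wild type and knockout, a log2 ratio of 0.06. With the deposited values the ligand and the antagonist were slightly above, and the receptor slightly below, wild type. With both lungs set to the same sum of FPKM outside muscle, red blood cell and mitochondrial genes, Fgf10 was at 0.075, Fgfr2 at -0.20 and Spry2 at -0.013, so the direction of Spry2 turned. The FPKM of Fgfr2 was 4.65 times that of Fgf10 in wild-type lung and 3.82 times that of Fgf10 in knockout lung.

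The Hedgehog arm was represented by a ligand, a receptor and 2 further target genes. Shh, the epithelial ligand (mm9 chr5:28783380-28807627, - strand), had 16.6 FPKM in wild-type lung against 15.9 FPKM in knockout lung, a log2 ratio of -0.06. Ptch1, which encodes the SHH receptor and is a target of the pathway (mm9 chr13:63609644-63666828, - strand), had 85.8 and 79.2 FPKM in wild type and knockout, a log2 ratio of -0.11. It had the highest level of the 10 genes in both lungs. Gli1, a transcriptional activator whose own expression reports Hedgehog activity (mm9 chr10:126759172-126778942, - strand), had 27.0 and 28 FPKM in wild type and knockout, a log2 ratio of 0.05. Hhip, a membrane protein that binds and sequesters Hedgehog ligands (mm9 chr8:82489750-82581907, - strand), had 13.4 and 13 FPKM, a log2 ratio of -0.04. With the scaling outside muscle, red blood cell and mitochondrial genes, Shh was at -0.139, Ptch1 at -0.192, Gli1 at -0.028 and Hhip at -0.113, so that Gli1 was above wild type with the deposited values and below it there. With the deposited values Ptch1, Gli1 and Hhip stood at 92.4%, 104% and 97.1% of their wild-type levels. Relative to the ligand, Ptch1 stood at 5.16 times the FPKM of Shh in wild-type lung and 5.00 times in knockout lung. Hhip stood at 0.805 and 0.819 times the FPKM of Shh.

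Ptch1 and Hhip are standard reporters of Hedgehog signalling, so the RefSeq start regions of these 2 genes are shown, from 250 bases before to 50 bases after the annotated start on the gene's strand (build GRCm38.p6, Ptch1 chr13:63565686-63565985 and Hhip chr8:80057959-80058258, both on the - strand). Capitals mark the GC box, GGGCGG or its reverse complement.
Ptch1: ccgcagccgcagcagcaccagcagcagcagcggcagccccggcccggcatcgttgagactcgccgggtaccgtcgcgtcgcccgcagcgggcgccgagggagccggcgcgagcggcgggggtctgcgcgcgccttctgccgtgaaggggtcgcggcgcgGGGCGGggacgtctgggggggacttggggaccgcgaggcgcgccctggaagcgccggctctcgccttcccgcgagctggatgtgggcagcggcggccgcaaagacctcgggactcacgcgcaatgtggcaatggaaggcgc
Hhip: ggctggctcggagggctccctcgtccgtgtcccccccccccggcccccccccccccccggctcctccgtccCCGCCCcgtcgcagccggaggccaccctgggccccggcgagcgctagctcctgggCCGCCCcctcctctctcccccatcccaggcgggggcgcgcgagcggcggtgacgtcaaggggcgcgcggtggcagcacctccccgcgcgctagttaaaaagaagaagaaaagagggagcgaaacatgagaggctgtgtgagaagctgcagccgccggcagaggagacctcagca

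Ptch1 had 76.3% G and C with 47 CpG dinucleotides in this window and Hhip 73.7% with 30 CpG, against medians of 52.7% and 7 CpG over all 32851 promoters of the table. A GC box stood once in the Ptch1 window and at 2 places in the Hhip window, and 35.7% of all promoters held at least 1. The GLI consensus GACCACCCA, searched on both strands, was in neither window, nor in those of Fgfr2, Fgf10, Bmp4, Spry2 and Tbx4, and 0.253% of all promoters held it. The table matched 7 of the 10 genes and held no entry for Shh, Gli1 and Tbx5. These letters describe the windows and were not tied to any measured binding.

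Bmp4 and Tbx4 were the closest of the 10 to wild type with the deposited values. With equal sums outside muscle, red blood cell and mitochondrial genes they were at -0.046 and -0.079, and Tbx5 was closest at 0.007. Bmp4, a secreted growth factor of the distal bud (mm9 chr14:46999142-47010274, - strand), had 27.8 FPKM in wild-type lung against 28.5 FPKM in knockout lung, a log2 ratio of 0.03. Tbx4, a T-box transcription factor of lung and hindlimb mesenchyme (mm9 chr11:85703565-85729599, + strand), had 63.7 FPKM in both lungs, and 0.472% of the genes tested had an absolute log2 ratio no larger than its own. Tbx5, its paralogue, which is also required in the heart and forelimb (mm9 chr5:120284672-120335227, + strand), had 32.6 and 34.7 FPKM in wild type and knockout, a log2 ratio of 0.08. Tbx4 was 1.95 times as high as Tbx5 in wild-type lung and 1.84 times as high in knockout lung, on the FPKM scale.

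**Figure D1:**
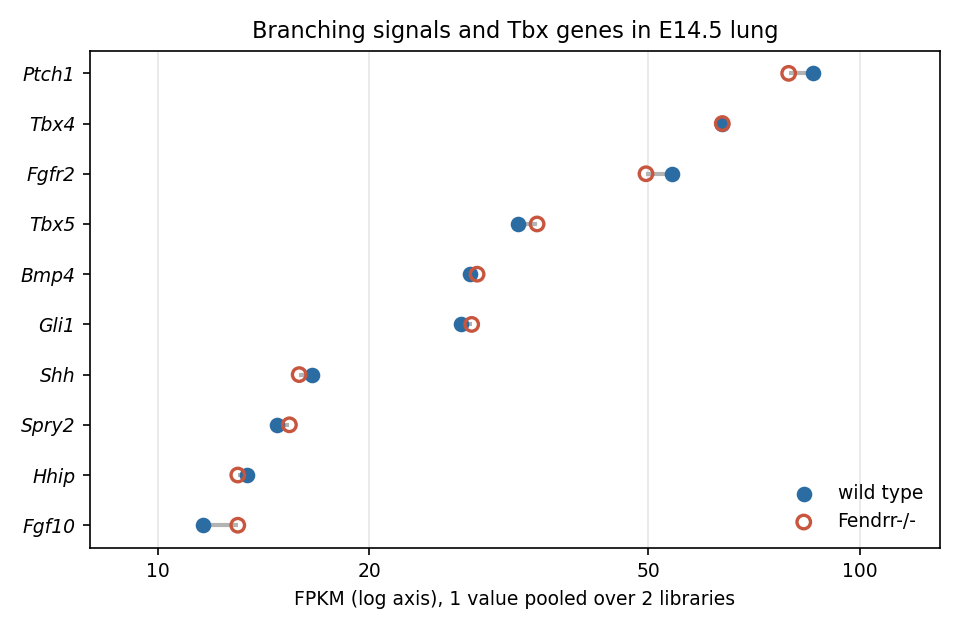
FPKM (log axis) of the 10 genes in E14.5 lung, with 1 pooled value for wild type (filled) and 1 for Fendrr-/- (open); the grey bar joins both. The 2 points of each gene lie close together, at most 11.8% of the wild-type level apart (Fgf10), and the genes keep the same order in both genotypes.

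Across the 10 genes, levels spanned 7.38-fold in wild-type lung and 6.10-fold in knockout lung. From highest to lowest the order in wild type was Ptch1, Tbx4, Fgfr2, Tbx5, Bmp4, Gli1, Shh, Spry2, Hhip and Fgf10, and all 10 kept the same rank in the knockout. The last pair in that order, Hhip and Fgf10, were 13.4 and 11.6 FPKM in wild type but both 13 FPKM in knockout. Without a spread between libraries, neighbours in this order such as Bmp4 and Gli1 (27.8 and 27.0 FPKM in wild type) cannot be said to differ. All 10 were well expressed, at the 73.6th to 96.7th percentile of genes above 0 FPKM in wild-type lung.

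None of the 10 genes was past the 1.5-fold limit in Fendrr-/- lung in either direction. Of all 13979 genes tested, 113 were lower (0.808%) and 197 were higher (1.41%) in knockout lung by that rule, so a count of 0 among 10 genes is near the background. With the scaling outside muscle, red blood cell and mitochondrial genes, 159 were lower and 168 higher. The log2 ratios of the 10 genes ran from -0.12 to 0.15 with a median of 0.015, against a median of 0.004 over all genes tested. Their median absolute log2 ratio was 0.06, and that of all genes tested was 0.08. Among the 5688 genes whose mean level lay in the range of the 10 (12.3 to 82.5 FPKM), the median absolute log2 ratio was likewise 0.06 and 1.02% were past the limit. The 10 branching genes thus varied about as much as other lung genes of their level.

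The rest of each pathway was described by a gene list that contains the members of that pathway. For all lists below the background is the share of all genes tested in lung, 0.808% lower and 1.41% higher past the limit. By that share a count of 0 or 1 in a pathway list is near the background. In the Hedgehog list, 15 of 18 genes had a mean of at least 1 FPKM, and 0 of the 15 were past the limit in either direction; the median log2 ratio was 0.06. Smo, the signal transducer that PTCH1 inhibits, had 54.9 and 60.1 FPKM in wild-type and knockout lung. With Ptch1 and Gli1 it had the highest level of this list. Gas1, a SHH co-receptor named after its value was seen, had the ratio farthest from 0 in the list, with 12.8 FPKM in wild type against 17.4 FPKM in knockout, a log2 ratio of 0.41.

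In the FGF list all 21 genes reached 1 FPKM, and 1 was past the limit. Fgfr4, a receptor for other FGF ligands, was lower in knockout lung, with 16.2 FPKM in wild type against 8.78 FPKM in knockout, a log2 ratio of -0.82. The other 20, with log2 ratios within the limit, included Etv5, a transcription factor induced by FGF signalling (95.0 and 96.2 FPKM), and Spred1, an inhibitor of the downstream kinase cascade (31.8 and 32.7 FPKM). The receptor that takes up FGF10 and the receptor Fgfr4 thus had different ratios, -0.12 and -0.82, and the median of the FGF list was 0.01.

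In the BMP list 23 of 24 genes reached 1 FPKM and 0 were past the limit, with a median log2 ratio of 0.02. The Id genes are direct targets of BMP signalling and had the highest levels of the list. Id1 had 60.4 and 60.2 FPKM in wild type and knockout, and Id2 had 158 and 160 FPKM. Id3 had 130 and 163 FPKM, a log2 ratio of 0.33, short of the limit. Bmp4 itself was thus accompanied by 2 targets at their wild-type level and 1 somewhat above it.

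Of the 5 pathway lists, the T-box list had the most genes past the limit. Of 17 genes, 9 reached 1 FPKM, 3 were higher past the limit and 0 lower, with a median log2 ratio of 0.08. Tbx15, a factor of trunk and limb mesenchyme, had 0.11 FPKM in wild type against 3.20 FPKM in knockout, a log2 ratio of 1.92. Tbx15 reached the mean of 1 FPKM only through knockout lung, so its call as higher was nearly built into being tested. Tbx20, a factor of the developing heart, had 1.52 and 3.82 FPKM, a log2 ratio of 0.94. Tbx18, a factor of the epicardium and other mesenchyme, had 1.65 and 3.06 FPKM, a log2 ratio of 0.61. With equal sums outside muscle, red blood cell and mitochondrial genes, Tbx18 was at 0.56 and no longer past the limit, which left 2 genes. With a pseudocount of 0.1 FPKM the count was 4, as Tbx1 (4.93 and 3.16 FPKM) passed it as lower, at -0.63. All 3 were far below Tbx4, Tbx5 and Tbx2 (75.3 and 71.1 FPKM in wild type and knockout), the 3 highest of the family. The lung T-box genes at high level were therefore within the limit, and the 3 past it were low in both lungs.

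Markers of heart muscle moved in the same direction as those 3 genes. Of the 14 cardiac muscle genes 13 reached 1 FPKM, and 12 of the 13 were higher past the limit in knockout lung. Some of the 12 reached the minimum only through their knockout value. The summed level of the 14 was 388 FPKM in wild type against 1183 FPKM in knockout. Myl7, the atrial myosin light chain, had 147 and 422 FPKM. The defining cardiac factor Nkx2-5 had 0.515 and 1.20 FPKM. Skeletal muscle genes were also higher in knockout (9 genes summed to 22.5 and 49.4 FPKM, and the 6 that reached 1 FPKM were all past the limit), while the muscle factors Myod1 and Myog had 0.16 and 0.161 FPKM and 0.673 and 0.853 FPKM. Of 6 red blood cell genes 3 were lower (summed 3600 and 2358 FPKM). The part of these tissues in the Tbx15, Tbx18 and Tbx20 values, or in that of Tbx5, was not tested.

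The fifth list covered Wnt and retinoid signals that act beside the branching genes. Of 14 genes 13 reached 1 FPKM, 1 was higher past the limit and 0 lower, with a median log2 ratio of 0.175. Aldh1a2, which makes retinoic acid in mesothelium and mesenchyme, had 23.0 FPKM in wild type against 37.3 FPKM in knockout, a log2 ratio of 0.68. Wnt2, the mesenchymal ligand of lung specification, had 32.6 and 37.1 FPKM and stayed within the limit, as did Ctnnb1, which encodes the Wnt effector beta-catenin (418 and 430 FPKM). Beside Aldh1a2, 5 of 6 mesothelial markers had log2 ratios above 0 without passing the limit (Upk3b, 31.2 and 42.1 FPKM), and their part in its value was not tested.

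**Figure D2:**
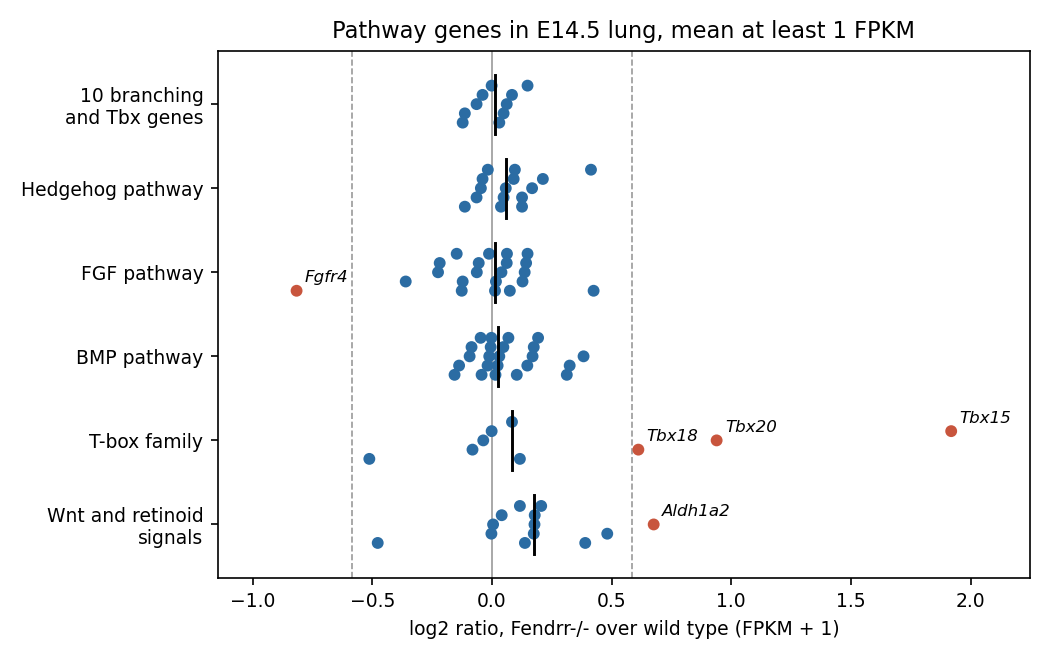
Log2 ratio of Fendrr-/- to wild-type FPKM in E14.5 lung after adding 1 FPKM, with a point per gene, the 10 branching and Tbx genes in the top row and the 5 pathway lists under it. Black bars are medians and dashed lines the 1.5-fold limit; Fgfr4 lies left of it, and Tbx18, Tbx20, Tbx15 and Aldh1a2 right of it.

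The tissues that the 10 genes come from were followed by their markers. Of the 10 lung epithelium genes 8 had log2 ratios below 0, with a median of -0.149. Their sum was 1318 FPKM in both lungs, but the 9 other than Sftpc summed to 499 FPKM in wild type against 447 FPKM in knockout, and Epcam had 94.7 FPKM in wild type against 84.8 FPKM in knockout. The 10 lung mesenchyme genes summed to 1215 and 1398 FPKM. The collagens Col1a1 (375 and 461 FPKM) and Col3a1 (527 and 626 FPKM) made up most of that sum and carried its rise. Of the 10 mesenchyme genes 7 had log2 ratios above 0 and 3 below, with a median of 0.124. In neither list was a gene past the limit with the deposited values. Foxf1a, the neighbour of Fendrr and a mesenchymal target of SHH, had 36.6 FPKM in wild type against 24.8 FPKM in knockout. Its log2 ratio was -0.54, just short of the limit with the deposited values. The scaling outside muscle, red blood cell and mitochondrial genes lowered the ratios of all 10 genes (Tbx4 from -0.001 to -0.079). Whether Foxf1a stayed within the limit under that scaling is not given here. Endothelial genes were lower without passing the limit (8 of 10 below 0, summed 454 and 382 FPKM).

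The brain groups were used as a contrast for the levels. The tables were normalised separately, so levels in lung and brain are set side by side and not tested. For 9 of the 10 genes every brain value was below both lung values; the exception was Spry2. Tbx4 and Tbx5 marked the lung most sharply. Tbx4 did not exceed 0.235 FPKM in any of the 8 brain groups, and Tbx5 did not exceed 0.0503 FPKM and was listed at 0 in 2 of them (Peril-/- E18.5 and wild-type P7). Neither gene reached 1 FPKM in any brain group, against 32.6 FPKM or more in lung.

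Shh, Hhip, Fgf10, Bmp4 and Gli1 were low in brain. The highest brain value was 2.32 FPKM for Shh (wild-type E13.5 telencephalon) and 2.21 FPKM for Gli1 in the same group. It was 1.74 FPKM for Hhip, 2.58 FPKM for Fgf10 and 2.48 FPKM for Bmp4. All 5 had at least 11.6 FPKM in lung.

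Ptch1, Fgfr2 and Spry2 reached 1 FPKM in all 8 brain groups. Ptch1 ran from 17.0 to 23.0 FPKM in brain and from 79.2 to 85.8 FPKM in lung. Fgfr2 ran from 7.39 to 22.3 FPKM in brain, below its 49.6 to 54.1 FPKM in lung. Spry2 overlapped, with 6.39 to 16.4 FPKM in brain and 14.8 to 15.4 FPKM in lung. The receptors and Spry2 were thus expressed in both organs, but only Spry2 at overlapping levels, as both receptors were higher in lung. The ligands, Gli1, Hhip and the T-box factors were low in brain and much higher in lung.

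**Figure D3:**
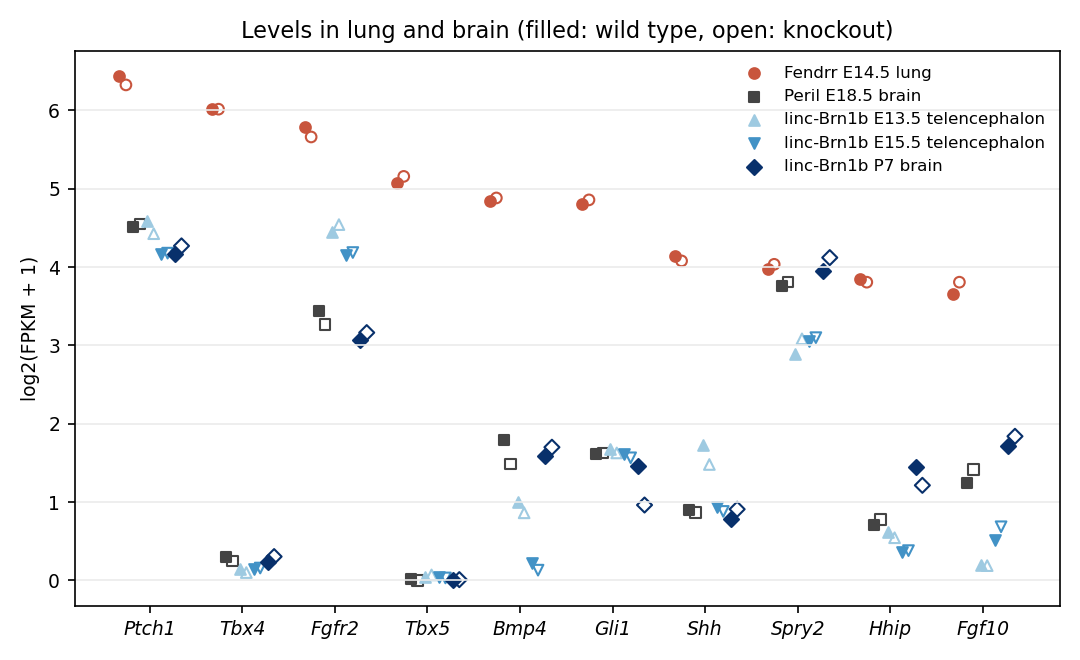
Levels of the 10 genes as log2(FPKM + 1) in the 10 groups, filled for wild type and open for knockout, ordered by the wild-type lung level. Lung points (red circles) lie above all brain points for every gene but Spry2, and Tbx4 and Tbx5 are near 0 in brain.

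The same 10 genes were then compared between knockout and wild type in each brain. In Peril E18.5 brain 6 of them reached a mean of 1 FPKM and 0 were past the limit, against 1.62% of all genes tested. The largest ratio was that of Bmp4, with 2.48 FPKM in wild type against 1.80 FPKM in knockout, a log2 ratio of -0.31. Ptch1 had 21.8 and 22.4 FPKM and Gli1 2.05 and 2.09 FPKM in the same pair of groups. Both Hedgehog targets tested there were thus at 102% to 103% of wild type, while Shh and Hhip, with 0.865 and 0.627 FPKM in wild type, were below the minimum for testing.

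In linc-Brn1b E13.5 telencephalon 5 genes were tested and 0 were past the limit, against 7.06% of all genes. Shh had 2.32 FPKM in wild type against 1.79 FPKM in knockout, a log2 ratio of -0.25, and Ptch1 had 23.0 and 20.5 FPKM, a log2 ratio of -0.16. Spry2 had 6.39 and 7.48 FPKM, a log2 ratio of 0.20. The summed FPKM of these groups differed, 434191 in wild type and 381511 in knockout. When both were set to the same sum, the median log2 ratio of all genes became 0.22, and the calls over all genes turned from 745 lower and 209 higher to 430 lower and 626 higher. On that scale the log2 ratio of Shh was -0.125 and that of Ptch1 turned to 0.02, so the direction of Ptch1 depends on the scaling.

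In linc-Brn1b E15.5 telencephalon 4 genes were tested and 0 were past the limit, against 0.473% of all genes. Fgfr2 had 16.8 and 17.2 FPKM in wild type and knockout, and Ptch1 had 17.0 and 17.1 FPKM. The log2 ratios of the 4 genes ran from -0.05 to 0.05.

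In linc-Brn1b P7 brain 7 genes were tested and 0 were past the limit, against 4.32% of all genes. Gli1 came nearest to it, with 1.75 FPKM in wild type against 0.949 FPKM in knockout, a log2 ratio of -0.50. It passed the limit, at -0.885, when no pseudocount was added. Hhip, another Hedgehog target, had 1.74 and 1.32 FPKM, a log2 ratio of -0.24. Ptch1, the third target, had 17.0 and 18.3 FPKM, a log2 ratio of 0.10. The low targets were lower in knockout and the abundant one was not, and none of the 3 differences was set against a spread between replicates here.

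Within the linc-Brn1b table the groups were normalised together, so the 10 genes could be followed from E13.5 to E15.5 telencephalon and to P7 brain in each genotype. Age and tissue cannot be told apart at P7, since telencephalon was taken before birth and brain after it. Sex composition also differed between the ages within each genotype. The summed FPKM of the 4 Y-linked genes at E13.5, E15.5 and P7 was 49.2, 0.00662 and 0.0357 in wild type. In knockout it was 0.0133, 21 and 23.2, and the part of sex in the courses below was not tested. Between E13.5 and E15.5, 1 of 5 genes tested was past the limit in each genotype, against 16.7% of all genes in wild type and 17.9% in knockout. That gene was Shh in both, at 2.32 and 0.911 FPKM in wild type and 1.79 and 0.842 FPKM in knockout. Shh was thus lower at E15.5, with a log2 ratio of -0.80 in wild type and -0.60 in knockout. The knockout value fell short of the limit once ratios were centred on the median of all genes. In each genotype Shh reached the mean of 1 FPKM only through its E13.5 value.

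Between E13.5 and P7, 6 of 8 genes tested were past the limit in wild type and 5 of 7 in knockout, against 56% and 60.1% of all genes. Fgf10 in both genotypes, Hhip in wild type and Bmp4 in knockout reached the mean of 1 FPKM only through their P7 value. Shh in both genotypes and Gli1 in knockout reached it only through their E13.5 value. For such genes a call in that direction was nearly built into being tested. Hhip was under the minimum in knockout and was not counted there. Fgf10 was higher at P7, with 0.151 FPKM at E13.5 and 2.30 FPKM at P7 in wild type, and 0.140 and 2.58 FPKM in knockout. Fgfr2 was lower, with 20.8 and 7.39 FPKM in wild type and 22.3 and 7.96 FPKM in knockout. The ligand and its receptor thus had opposite courses in both genotypes. Spry2 was higher at P7, by a log2 ratio of 1.07 in wild type (6.39 FPKM at E13.5) and 1.04 in knockout (7.48 and 16.4 FPKM).

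Bmp4 was lowest at E15.5. In wild type it had 1 FPKM at E13.5, 0.167 FPKM at E15.5 and 2.02 FPKM at P7, and in knockout it had 0.819, 0.0952 and 2.25 FPKM. Hhip was also lowest at E15.5, with 0.534, 0.283 and 1.74 FPKM in wild type and 0.459, 0.302 and 1.32 FPKM in knockout. The E15.5 values of Bmp4 and Hhip were under 1 FPKM in each genotype. Neither gene reached the minimum for testing between E13.5 and E15.5. Ptch1 stayed within the limit in both genotypes, at 23.0, 17.0 and 17.0 FPKM in wild type and 20.5, 17.1 and 18.3 FPKM in knockout. Gli1 was past the limit in knockout (2.09 FPKM at E13.5 and 0.949 FPKM at P7) but not in wild type (2.21 and 1.75 FPKM), and the difference between the genotypes was not tested.

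**Figure D4:**
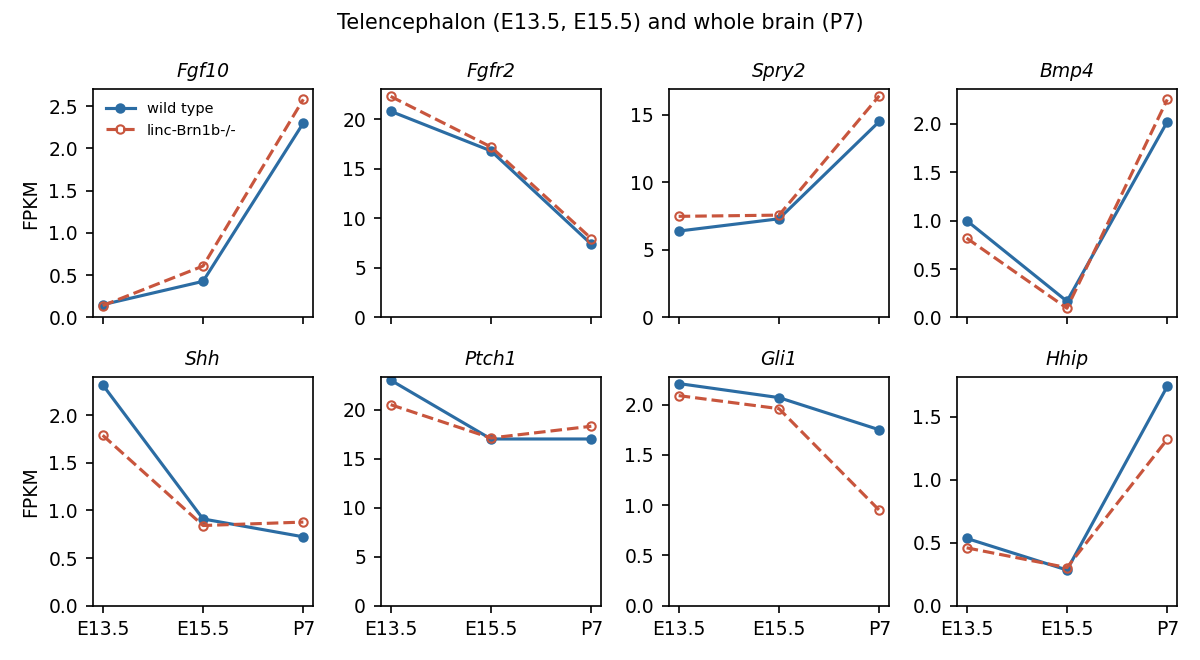
FPKM of 8 of the 10 genes in linc-Brn1b telencephalon (E13.5, E15.5) and P7 brain, with 1 pooled value per age for wild type (solid) and knockout (dashed); each panel has its own axis from 0. The widest gap between the genotypes relative to wild type among values of at least 1 FPKM is that of Gli1 at P7, at 1.75 in wild type and 0.949 FPKM in knockout; Shh at E13.5 (2.32 and 1.79 FPKM) and Hhip at P7 (1.74 and 1.32 FPKM) are also apart.

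Some of the entries overlap other genes, and the library kit does not mark strand, so reads from both strands are counted together. In the lung table Gli1 overlaps Arhgap9 (1.52 and 1.76 FPKM in wild type and knockout), and Shh overlaps linc-Shh-AS (1.72 and 1.39 FPKM). Fgf10, Hhip and Bmp4 each overlap 1 entry at or below 0.260 FPKM in lung, and the other 5 genes overlap none.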

How the data were processed

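Whole lungs and brains of lincRNA knockout and wild-type mice were profiled by RNA-seq (TruSeq libraries, paired-end 101 bp reads). Per the submitters' processing notes and the study's methods, TopHat2 placed the reads on the mm9 genome, Cufflinks 2.0.2 built the transcripts, and Cuffdiff2 gave the levels. The deposited values used here are FPKM, 1 per gene and group, pooled over the libraries of that group; no columns of values per library were used (0), and the depth is unknown. The tables also hold the authors' own fold changes, test statistics, p-values and q-values, which were not used. Table starts count from 0, and 1 was added. Log2 ratios, counts past the limit and percentiles among genes above 0 FPKM were computed in Python 3.11.15 with pandas 2.3.3, and the counting step was tested on simulated data. The text names the 10 genes everywhere, and from each of the 5 pathway lists the genes past the limit and the 3 highest in wild-type lung. From the 13 marker lists it names up to 4 of the highest genes, Foxf1a is named as the neighbour of Fendrr, and the others named (Gas1, Tbx1, Nkx2-5, Myod1, Myog, Neurod6, Myh11) were chosen after their values were seen. The genes and lists were chosen with earlier results of these data known. The comparison of ages within the linc-Brn1b table was added after its values were seen. Alternatives were the pseudocount, the filter, the limit and 3 ways of scaling.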

Additional observations from a re-analysis of the deposited data

How the results depend on the processing

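Every value rests on 1 pooled FPKM per group, so no spread, interval or test was computed (the authors' own tests were not used), and the depth of the libraries is unknown. No paired analysis was possible because the deposited values are pooled over libraries. Leaving out a library could not be run for the same reason. In lung, 0 of the 10 genes were past the limit in either direction under all 9 alternatives, and their log2 ratios stayed between -0.20 and 0.16. The signs of Spry2, Gli1 and Bmp4 turned under 1 alternative (equal sums outside muscle, red blood cell and mitochondrial genes), where the median of the 10 was -0.063 and that of all genes -0.068.

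Of the 144 counts and medians recomputed, 30 moved. With a pseudocount of 0.1 FPKM, 2 FGF, 1 BMP and 2 Wnt and retinoid genes were past the limit in lung, and with no pseudocount 2 of each list. Of all genes in lung, 1.66% were lower and 2.16% higher in the first setting, and 1.74% and 2.27% in the second. At a looser limit (log2 ratio of 0.32) the counts were 1 Hedgehog, 3 FGF, 2 BMP and 4 Wnt and retinoid genes. There 3.56% of all genes were lower and 3.81% higher. At 2-fold the counts were 0 FGF, 1 T-box and 0 Wnt and retinoid genes, against 0.293% lower and 0.572% higher of all genes. With a minimum of 5 FPKM the count was 0 T-box genes, against 0.503% lower and 0.805% higher. In linc-Brn1b P7 brain 1 of the 10 genes (Gli1) was past the limit with a pseudocount of 0.1 FPKM, with none, and at the looser limit. Of all genes there, 3.96% were lower and 3.43% higher with 0.1 FPKM. The shares were 4.24% and 3.73% with none, and 8.55% and 10.1% at the looser limit. Between E13.5 and E15.5 the count in each genotype was 2 with no filter and at the looser limit, and 0 with the 5 FPKM minimum and at 2-fold. It was also 0 in knockout with ratios centred on their median. Between E13.5 and P7 the count in each genotype was 2 with the 5 FPKM minimum and 3 at 2-fold. The shares of all genes between ages under these alternatives are not given here, so these counts have no background beside them. The lower counts with a higher minimum or limit follow from fewer genes or a stricter limit, and other causes were not tested.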

Other observations

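Other marker lists in Fendrr-/- lung bear on the tissue around the branching genes. Of 8 smooth muscle genes, the cells that form around the growing airways, 1 was lower past the 1.5-fold limit. This was Myh11, with 28.4 FPKM in wild type against 17.4 FPKM in knockout. The highest of the list, all within the limit, were Acta2 (250 and 242 FPKM), Tagln (63.7 and 65.2 FPKM), Actg2 (36.4 and 29.9 FPKM) and Smtn (34 and 28.3 FPKM). Of the 8 genes 6 had log2 ratios below 0 and 2 above, with a median of -0.114. None of 10 endothelial genes was past the limit, and Cdh5 had 85.2 and 67.2 FPKM. None of 7 macrophage genes was past it, with Lyz2 at 35.8 and 27.6 FPKM and C1qa at 12.4 and 16.7 FPKM. Of the tracheal cartilage list 4 of 6 genes reached 1 FPKM and 0 were past the limit (Matn4, 11.2 and 11.1 FPKM), and of the thymus list 3 of 6 reached it and 0 were past the limit (Lck, 5.83 and 7.13 FPKM). Of the telencephalon and neuron list 4 of 9 genes reached 1 FPKM, led by Nes with 35.2 and 32.4 FPKM, and 0 were past the limit.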
